A study of Mus musculus with 16 samples.

Results

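The genes described here are 47 enzymes and regulators of glycolysis, the polyol pathway and the tricarboxylic acid (TCA) cycle, taken from a table of mouse hippocampal gene expression by their symbols. All 47 were found among the 22572 gene names of the table. Of these, 45 stood as a single locus under their own name, Pdk2 was the sum of a pair of loci, and Hk1 was listed only jointly with its neighbour Hkdc1. A mean of at least 1 FPKM (fragments per kilobase of transcript, normalised to library size) over the 16 libraries was needed for a test, and 46 of the 47 reached it, among 12648 genes in all. Akr1b3 did not, so it is given by its level alone.

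The libraries came from the hippocampus of male C57BL/6 mice, with 4 per group. WT mice and Bgn knockout mice (Bgn0/-, called BgnKO here), which lack a working copy of the gene of the matrix proteoglycan biglycan, drank either regular water or 15% (w/v) fructose. Drinking began at 3 months of age and lasted 6 weeks, which gives the groups WT water, WT fructose, BgnKO water and BgnKO fructose. The labels give the replicates numbers but do not tie each to an animal, so the p-values reflect only how these libraries spread, which may be technical.

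Glycolysis splits glucose into pyruvate, hexokinase and phosphofructokinase being its main points of control. Pyruvate is reduced to lactate by lactate dehydrogenase or passed to the TCA cycle in mitochondria by the pyruvate dehydrogenase complex, which pyruvate dehydrogenase kinases switch off. The polyol pathway makes fructose from glucose through sorbitol, with aldose reductase (Akr1b3) and sorbitol dehydrogenase (Sord). In brain, neurons depend heavily on oxidation of pyruvate, while astrocytes are known for glycolysis and the export of lactate.

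Facts of the whole series bear on these values. Bgn itself was 6.50 ± 1.14 FPKM in the BgnKO libraries and 16 ± 6.42 in the WT libraries (SD, n = 8 each, 2-sided exact permutation p = 0.00109). By the same test on each drink alone, with 4 libraries per group, p was 0.0286 on water and 0.114 on fructose. One library, WT fructose replicate 1 by its label, had 5.42 FPKM of Bgn, within the span of the BgnKO libraries (4.46 to 7.60). Its meningeal and fibroblast markers were also the lowest, at a sum of 26.7 FPKM, beside 136 to 161 in the other WT fructose libraries. The cause of its low Bgn was not tested. The 4 libraries numbered 1 differed from the other 12. The strand of a locus was inferred from the order of the loci, which matched the annotation for 99.5% of 19799 single-locus genes. For 450 genes with loci inferred on each strand, the median part of their FPKM at the antisense loci was taken per library. It was 3.21 to 4.39% in the libraries numbered 1 and 17.3 to 22.1% in the other 12. Genotype results are therefore also given with a term for replicate 1 in the model and in replicates 2 to 4 alone. The summed FPKM of named genes was 342721 to 376209 per library. The sources used here do not give read totals. Low values moved in steps of whole fragments, which put the depth of replicates 2 to 4 at 0.824 to 1.10 times that of WT water replicate 2, and no such shared step was found for replicate 1. The 8 markers of hippocampal excitatory neurons summed to 238 to 421 FPKM in every library, with the defining markers Neurod6 at 88.0 to 173 and Wfs1 at 37.8 to 93.8. In bulk tissue, fewer cells of a type and less RNA per cell cannot be told apart.

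The members spanned more than 3 orders of magnitude on the FPKM scale, which is per transcript length. Aldoa, the aldolase of muscle and brain, was the highest at 1393 to 1799 FPKM. It was followed by Eno2, the neuronal enolase, at a mean of 349 FPKM, and by the genes of pyruvate kinase, Pkm (248 to 348 FPKM), and triose phosphate isomerase, Tpi1 (261 to 331 FPKM). Of the hexokinases, Hk1 (read jointly with Hkdc1) averaged 176 FPKM and Hk2 1.28. Among the phosphofructokinases the order was Pfkm (125), Pfkp (73.4) and Pfkl (59.2), and the ranges of Pfkp (56.6 to 84.9) and Pfkl (49.8 to 70.0) overlapped. Of the TCA cycle genes, Mdh2 (237), Mdh1 (235) and Idh3b (142) were highest and Fh1 (34.9) was lowest, and the ranges of Mdh1 and Mdh2 overlapped. Pdk2, at 82.1, was the leading pyruvate dehydrogenase kinase, ahead of Pdk3 (14.3), Pdk1 (11.6) and Pdk4 (5.47).

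Of the lactate dehydrogenase genes, Ldhb, of the heart-type subunit, was the higher. The ratio of Ldhb to Ldha, the muscle-type subunit gene, was 1.61 ± 0.111 in WT water, 1.63 ± 0.135 in WT fructose, 1.78 ± 0.0766 in BgnKO water and 1.87 ± 0.221 in BgnKO fructose (SD, n = 4), and 1.45 to 2.12 over the 16 libraries. Eno2 exceeded Eno1 by 4.60 to 8.24 times. Within the members, 28 genes had a mean of 50 FPKM or more, and 9 lay under 10 FPKM.

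Some members usually abundant in brain had low values in this table. Library values are given in the order of replicates 1 to 4 of each group. Gapdh, the glyceraldehyde phosphate dehydrogenase used as a loading control, measured 5.17, 5.64, 6.60 and 6.58 FPKM in WT water, 6.59, 6.17, 7.97 and 7.41 FPKM in WT fructose, 5.56, 6.04, 7.31 and 7.81 FPKM in BgnKO water, and 6.68, 5.76, 7.83 and 5.22 FPKM in BgnKO fructose. Pgk1, phosphoglycerate kinase, lay between 5.62 and 9.52 FPKM and Pgam1, phosphoglycerate mutase, between 13.1 and 17.5. These genes act between Tpi1 and Pkm in the same pathway, whose FPKM were 261 to 331 and 248 to 348. Their coding sequences are largely repeated elsewhere in the genome, mainly in processed pseudogenes. Cut into words of 31 bases, 94.3% of the Gapdh coding words were found in transcripts of other genes of GENCODE vM21, and 122 pseudogenes each shared at least 10% of them. For Pgk1 and Pgam1 the share was 100%, for Akr1b3 93.6% and for Eno1 89.5%. The 5 members with a share over 85% had mean levels of 0.888 to 58.1 FPKM, with a median of 7.07. The 28 members with a share of 0 had a median of 54.6 and ranged from 1.28 to 349. High shares did not go with low levels throughout, since Pkm (78.1% shared) stood at 248 to 348 FPKM. The sources used here do not say how reads that match several places were treated, so the levels of these 5 genes are uncertain, and the part of the copies in them was not tested.

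**Figure D1:**
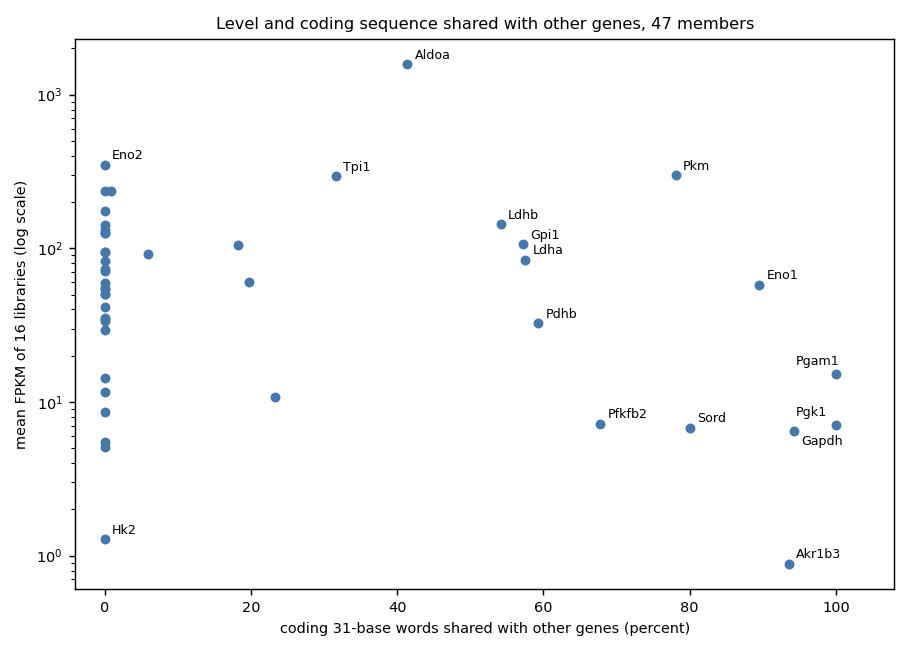
Each point is 1 of the 47 members, placed by the percent of its coding 31-base words that also occur in other genes (x axis) and by its mean FPKM over 16 libraries on a log scale (y axis). Gapdh, Pgk1, Pgam1, Eno1 and Akr1b3 lie at the right, over 85%, with means from 0.888 to 58.1 FPKM.

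Knockout against wild type on water called no member. Of the 46 tested, 23 were higher and 23 lower in BgnKO, the median log2 fold was 0.00, as it was for all genes tested, and none had an adjusted p under 0.05 (limma on log2(FPKM + 1), Benjamini-Hochberg over 12648 genes). At an unadjusted p under 0.05 there were 2 members, Eno1 and Gpd1. The background was 0.387% of genes called. The groups did not overlap for 4 members (Eno1, Gpd1, Ogdh and Pfkfb3, all lower in BgnKO), which is 8.70%, and for 4.01% of all genes tested. With the term for replicate 1 the 2 members Eno1 and Gpd1 passed, against 0.996% of all genes, and in replicates 2 to 4 the same 2 passed, against 0.625%.

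On fructose, 2 of the 46 members passed the test: Galk1 was higher and Gpd1 lower in BgnKO. This is 4.35% of the members beside a background of 3.76% of genes called, so the share of members was near that of all genes. In all, 16 members were higher and 30 lower, with a median log2 fold of -0.03 against -0.01 over all genes. The groups did not overlap for 4 members (8.70%), and for 11.0% of all genes tested. With median-ratio rescaling Galk1 and Gpd1 passed again, and Ldhb also passed, higher in BgnKO (log2 fold 0.24, limma adjusted p = 0.043). The share of all genes called under that rescaling is not given here. With the term for replicate 1, 7 members passed (5 higher: Galk1, Idh2, Ldhb, Pgk1 and Sdhd; 2 lower: Eno1 and Gpd1), against a background of 17.3%. In replicates 2 to 4 there were 5 (Galk1 and Ldhb higher; Eno1, Gpd1 and Pfkl lower), against 10.9%.

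Averaged over both drinks, Gpd1 and Eno1 fell and Galk1 rose in BgnKO, 3 of 46 members or 6.52%, beside a background of 4.99%. The term for replicate 1 gave 11 members against 18.0% of all genes, and replicates 2 to 4 gave 6 against 12.6%. The interaction of genotype and fructose called no member, beside a background of 0.00791%, which is 1 gene.

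**Figure D2:**
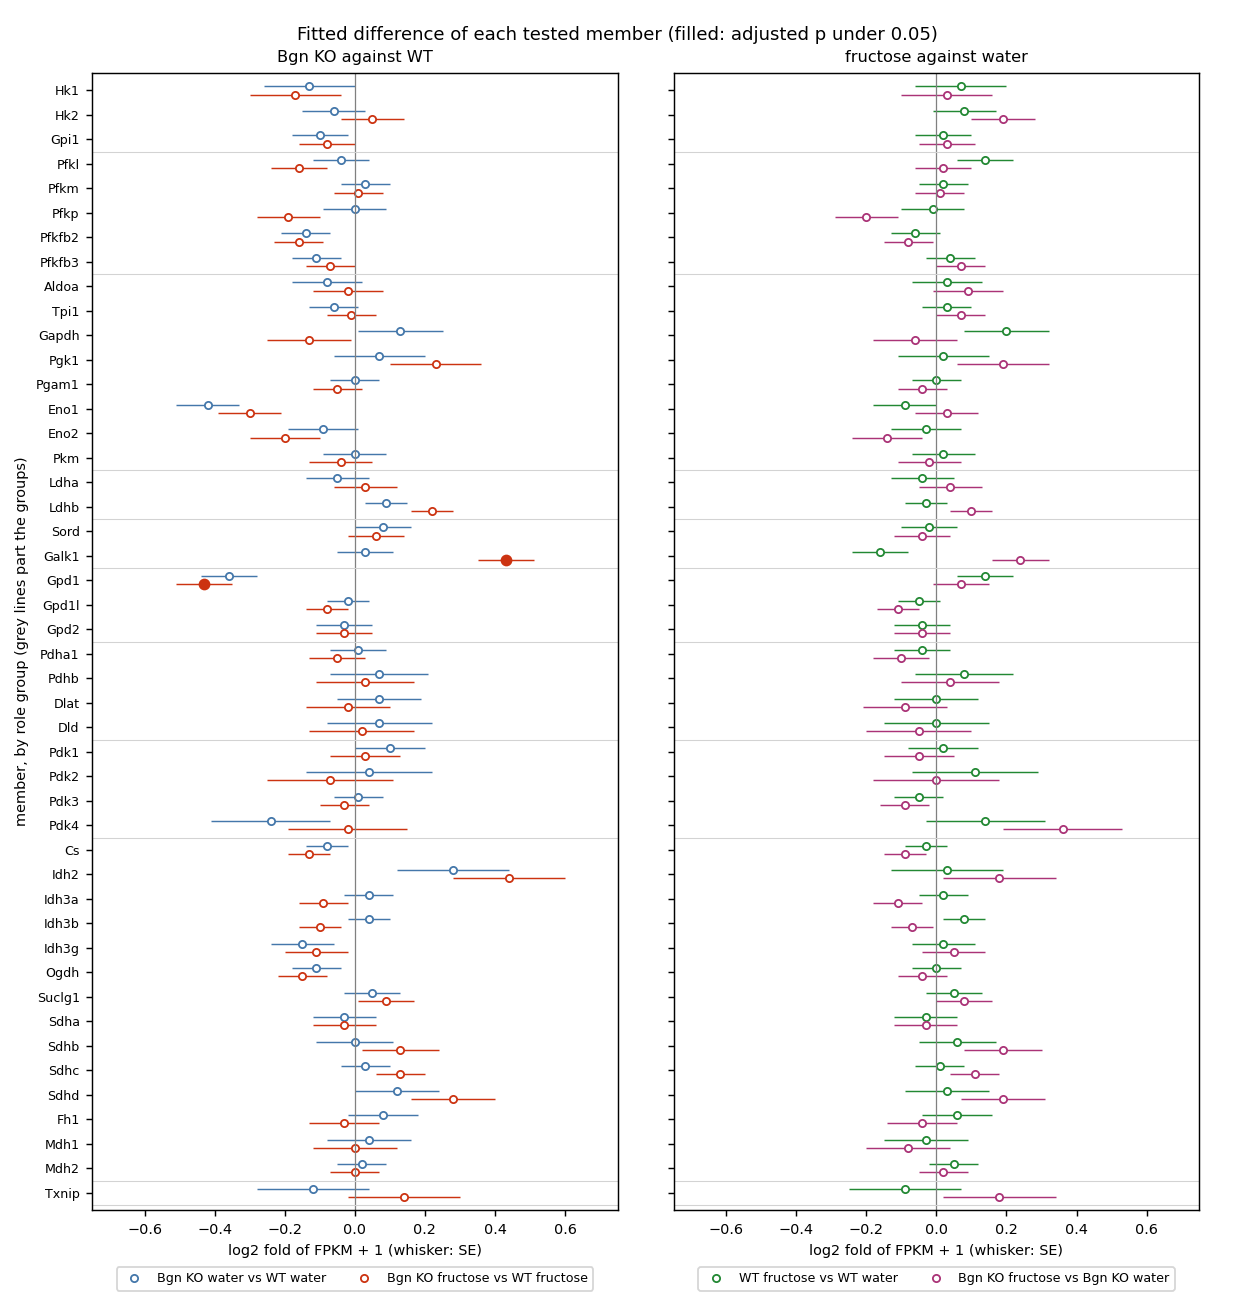
Fitted log2 fold on the log2(FPKM + 1) scale (x axis) with its SE for the 46 tested members (y axis, ordered by role), BgnKO against WT on each drink (left) and fructose against water in each genotype (right). Filled points passed an adjusted p of 0.05: only Galk1 and Gpd1 in BgnKO fructose against WT fructose, with folds of 0.43 and -0.43.

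Gpd1, the cytosolic glycerol 3-phosphate dehydrogenase that links glycolysis to glycerolipids and to the glycerol phosphate shuttle, was lower in every BgnKO library than in the WT libraries on the same drink. Gpd1 (mm10, chromosome 15, 99717515 to 99725005, plus strand) measured 57.9, 64.8, 70.5 and 68.0 FPKM in WT water, 65.2, 69.1, 77.1 and 76.6 FPKM in WT fructose, 48.7, 50.2, 51.2 and 52.5 FPKM in BgnKO water, and 60.2, 49.8, 53.7 and 49.6 FPKM in BgnKO fructose. All 4 BgnKO libraries lay below all 4 WT libraries on each drink. The group means were 65.3 ± 5.45 and 50.6 ± 1.62 FPKM on water and 72.0 ± 5.82 and 53.3 ± 4.93 on fructose, WT before BgnKO (SD, n = 4). The log2 fold was -0.36 (SE 0.08, limma adjusted p = 0.0783) on water, -0.43 (SE 0.08, adjusted p = 0.0102) on fructose and -0.39 (SE 0.06, adjusted p = 0.00103) averaged over drinks, lower in 8 of 8 BgnKO libraries. Given its own term, replicate 1 left adjusted p at 0.0274 on water and 0.00292 on fructose. In replicates 2 to 4 the log2 fold was -0.39 on water (adjusted p = 0.0107) and -0.53 on fructose (adjusted p = 0.000875). Its relatives did not pass: Gpd1l had a log2 fold of -0.08 and Gpd2, the mitochondrial enzyme of the shuttle, of -0.03 on fructose. Gpd1 is known to be enriched in oligodendrocytes. The 8 oligodendrocyte markers summed to 2309 to 3115 FPKM in WT fructose and 2323 to 3613 in BgnKO fructose, and 2 of the 8 were lower there. On water the WT libraries summed to 2174 to 2944 FPKM and the BgnKO libraries to 1963 to 2465, and 8 of 8 were lower in BgnKO, with a median log2 fold of -0.18 and none passing the test. Of the Gpd1 coding words 19.7% also occur in its antisense neighbour Gm16537, whose reads cannot be told apart from those of Gpd1 unless strand was used in counting.

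Galk1, galactokinase, which phosphorylates galactose on its way into glycolysis, was higher in BgnKO on fructose. Galk1 (mm10, chromosome 11, 116008457 to 116012719, minus strand) measured 5.13, 5.09, 4.70 and 4.65 FPKM in WT water, 4.41, 4.07, 4.71 and 3.99 FPKM in WT fructose, 5.39, 4.62, 4.68 and 5.35 FPKM in BgnKO water, and 5.85, 5.48, 6.00 and 7.19 FPKM in BgnKO fructose. The BgnKO fructose libraries all lay above the WT fructose libraries, whereas the water groups overlapped. The means on fructose were 4.30 ± 0.333 FPKM in WT and 6.13 ± 0.738 in BgnKO (SD, n = 4), and the fitted log2 difference was 0.43 (SE 0.08; limma, adjusted p = 0.00974). On water the means were 4.89 ± 0.255 and 5.01 ± 0.416, and the log2 fold was 0.03 (SE 0.08, adjusted p = 1). The average over drinks was 0.23 (SE 0.06, adjusted p = 0.0298), with 6 of 8 BgnKO libraries above the WT mean of their drink. That averaged call was lost when any 1 of 7 libraries was left out (adjusted p of 0.0518 to 0.0675): WT water replicates 3 and 4, WT fructose replicates 2 and 4, BgnKO water replicates 1 and 4 and BgnKO fructose replicate 3. The difference between the drinks had the lowest p of the members in limma's interaction test (log2 0.40, SE 0.11, unadjusted p = 0.0026, adjusted p = 0.999). The fructose fold also passed once replicate 1 had its own term (adjusted p = 0.00315), and in replicates 2 to 4 it was 0.45 (adjusted p = 0.0161). BgnKO fructose replicate 4 was the highest library, at 7.19 FPKM. Without it the log2 fold on fructose was still called.

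The upstream window of Galk1 is shown because Galk1 was the member that rose. It covers the 250 bases before the annotated start (RefSeq, GRCm38.p6, chr11:116012720-116012969, minus strand, 5′ to 3′), with capitals marking the E-box CACGTG, a motif bound by many factors. The motif, which reads the same on both strands, begins 17 bases before the start.
Galk1: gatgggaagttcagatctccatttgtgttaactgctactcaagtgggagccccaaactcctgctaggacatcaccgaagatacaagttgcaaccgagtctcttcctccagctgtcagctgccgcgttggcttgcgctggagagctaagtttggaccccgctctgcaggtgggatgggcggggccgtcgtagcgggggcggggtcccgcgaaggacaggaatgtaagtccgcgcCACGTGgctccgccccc
Of all 32851 promoter windows of this length, 6.02% hold CACGTG. Of the members, 43 had at least 1 window in the table and 8 of them held the motif in 1 or more (Galk1, Gpd1l, Ldha, Ogdh, Pdk2, Pfkfb2, Pfkfb3 and Pfkm). By window, the unit of the 6.02%, this is 10 of 64, or 15.6%, and the difference was not tested. Of the genes with the motif only Galk1 passed the test on fructose. Gpd1, the other member that passed there, had no window and could not be compared.

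Eno1, the ubiquitous enolase, was lower in BgnKO as listed in the table. Eno1 (mm10, chromosome 4, 150236721 to 150248879, plus strand) measured 64.1, 70.2, 74.6 and 60.8 FPKM in WT water, 63.3, 59.4, 70.5 and 60.6 FPKM in WT fructose, 59.5, 43.4, 51.2 and 47.6 FPKM in BgnKO water, and 51.7, 48.8, 51.8 and 52.1 FPKM in BgnKO fructose. The BgnKO and WT libraries did not overlap on either drink. The means were 67.4 ± 6.18 and 50.4 ± 6.84 FPKM on water and 63.4 ± 4.98 and 51.1 ± 1.55 on fructose, WT before BgnKO (SD, n = 4). The log2 fold was -0.42 on water (SE 0.09, limma adjusted p = 0.0706), -0.30 on fructose (SE 0.09, adjusted p = 0.0724) and -0.36 averaged over drinks (SE 0.06, adjusted p = 0.00407). Each passed once replicate 1 had its own term (adjusted p = 0.0277, 0.027 and 0.00153). Eno2, the neuronal enolase, did not pass: its log2 fold was -0.09 on water and -0.20 on fructose.

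Eno1 has a near-identical copy that the table lists apart. Gm5506, called Eno1b in GENCODE vM21, is a separate gene with a coding sequence of 1302 bases, of which 8 differ from Eno1 (99.4% identical), and the longest identical run is 725 bases. A stretch of the Eno1 coding sequence where they differ most densely, bases 691 to 750, is shown with capitals at the 3 positions at which the copy has another base (GENCODE vM21 transcripts, 5′ to 3′).
Eno1: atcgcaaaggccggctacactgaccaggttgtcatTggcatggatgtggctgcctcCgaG
Gm5506 measured 0, 0.0181, 0 and 0.0367 FPKM in WT water, 0, 0, 0.0373 and 0 FPKM in WT fructose, 0, 12.8, 0.258 and 15.5 FPKM in BgnKO water, and 19.0, 15.5, 19.1 and 0.505 FPKM in BgnKO fructose. It was at 0.0373 FPKM or less in all 8 WT libraries, over 10 FPKM in 5 of the 8 BgnKO libraries, and under 1 FPKM in the other 3 (BgnKO water replicates 1 and 3 and BgnKO fructose replicate 4). Its log2 fold was 3.31 on fructose (SE 0.89, limma adjusted p = 0.0513) and 2.66 averaged over drinks (SE 0.63, adjusted p = 0.0243, higher in 7 of 8 libraries), the latter passing the test. Gm5506 was chosen after its values were seen. In the 3 BgnKO libraries where Gm5506 was under 1 FPKM, Eno1 was 59.5, 51.2 and 52.1, compared with 59.4 to 74.6 in WT.

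Summed per library, Eno1 and Gm5506 gave 63.4 ± 5.0 FPKM in WT fructose and 64.6 ± 8.58 in BgnKO fructose (SD, n = 4), so the groups differed by less than their spread. On water the sums were 67.4 ± 6.17 and 57.6 ± 4.97. In a fit with the pair summed, which was added after seeing the data, the log2 fold was 0.02 on fructose (SE 0.10, limma adjusted p = 0.938), -0.22 on water (SE 0.10, adjusted p = 0.903) and -0.10 averaged (SE 0.07, adjusted p = 0.432). The Eno1 call of the averaged comparison thus ended when its copy was added. With the term for replicate 1 the summed folds were the same and did not pass either (adjusted p = 0.908, 0.418 and 0.302).

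**Figure D3:**
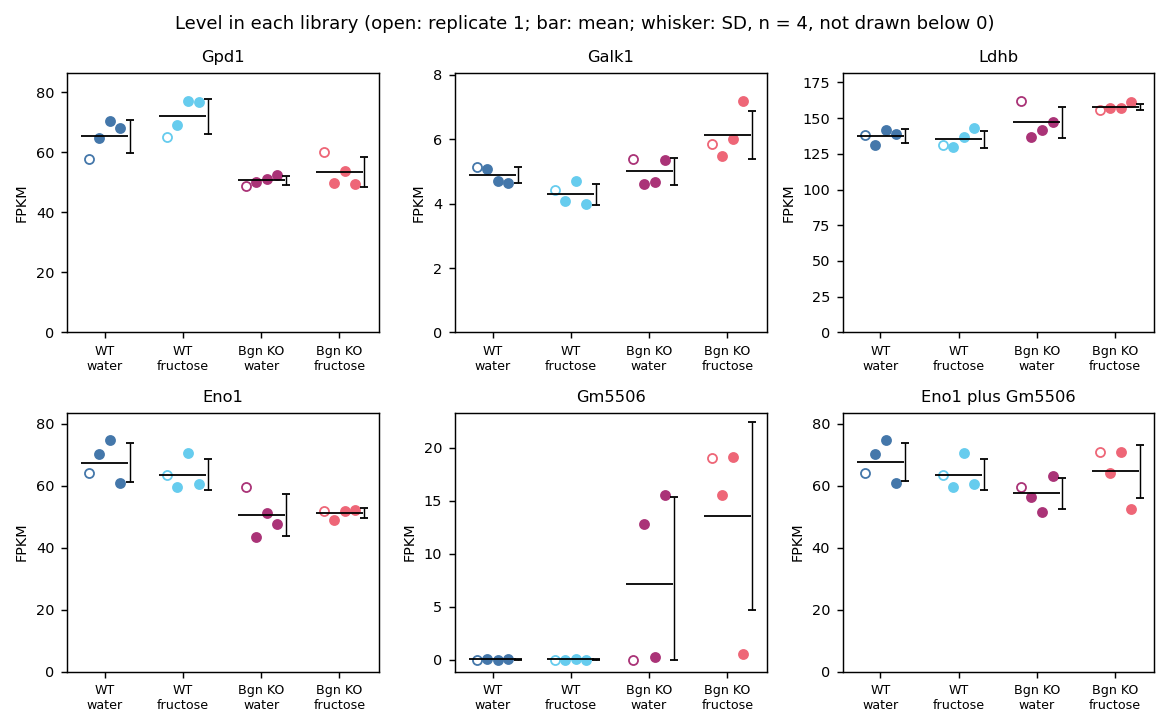
FPKM (y axis) of 5 genes and of the sum of Eno1 and Gm5506 in each of 16 libraries by group (x axis), open circles for replicate 1, bars for group means and whiskers for the SD. Gpd1 is lower in every BgnKO library than in the WT libraries of the same drink, Gm5506 is at 0.0373 or less in WT, and the summed enolase values of the fructose groups overlap.

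No hexokinase passed the test for genotype on either drink. Hk1, the main brain hexokinase, measured 141, 192, 201 and 191 FPKM in WT water, 150, 189, 210 and 211 FPKM in WT fructose, 139, 168, 178 and 175 FPKM in BgnKO water, and 148, 176, 187 and 160 FPKM in BgnKO fructose. Its log2 fold on fructose was -0.17 (SE 0.13, limma adjusted p = 0.486), the smallest unadjusted p of the 3 genes of this group in that comparison. Replicate 1 was the lowest library of every group, and when replicate 1 had its own term the averaged log2 fold of -0.15 passed (limma adjusted p = 0.0298). Hk2, the insulin-responsive hexokinase, measured 1.39, 1.50, 1.18 and 0.846 FPKM in WT water, 1.50, 1.30, 1.31 and 1.28 FPKM in WT fructose, 1.01, 1.29, 1.13 and 1.05 FPKM in BgnKO water, and 1.64, 1.26, 1.48 and 1.33 FPKM in BgnKO fructose, and its log2 fold on fructose was 0.05 (adjusted p = 0.812). These values are near the minimum for a test. Gpi1, the isomerase of the next step, lay between 96.4 and 120 FPKM and had a log2 fold of -0.08 on fructose.

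None of the 5 phosphofructokinase and PFKFB genes passed on either drink, and 4 of 5 were lower in BgnKO on fructose, with a median log2 fold of -0.16. Pfkfb2, which makes the phosphofructokinase activator fructose 2,6-bisphosphate, measured 8.13, 8.41, 7.31 and 7.34 FPKM in WT water, 7.84, 7.14, 6.89 and 7.90 FPKM in WT fructose, 7.19, 7.74, 6.38 and 6.65 FPKM in BgnKO water, and 7.14, 6.28, 6.29 and 6.54 FPKM in BgnKO fructose. Its log2 fold was -0.16 on fructose (SE 0.07, limma adjusted p = 0.211) and -0.15 averaged over drinks (SE 0.05, adjusted p = 0.0999). All 8 BgnKO libraries lay below the WT mean of their drink, but the genotypes overlapped on each drink. The averaged Pfkfb2 fold passed once replicate 1 had its own term (limma adjusted p = 0.0285). Of the Pfkfb2 coding words 67.8% also occur in other genes, mainly Gm29427 (67.4%). Pfkl, the liver-type phosphofructokinase, measured 54.6, 60.7, 59.2 and 58.5 FPKM in WT water, 66.7, 61.2, 68.4 and 61.1 FPKM in WT fructose, 56.9, 55.4, 58.7 and 54.8 FPKM in BgnKO water, and 70.0, 54.8, 56.7 and 49.8 FPKM in BgnKO fructose. Its log2 fold on fructose was -0.16 (adjusted p = 0.289). In replicates 2 to 4 it was -0.24 and passed (adjusted p = 0.0381), BgnKO fructose replicate 1 being the highest of the 16 libraries.

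In lower glycolysis, 7 of 8 genes were below 0 on fructose with a median log2 fold of -0.04, and none passed. Aldoa (-0.02), Tpi1 (-0.01) and Pkm (-0.04) had log2 folds smaller than their SE. Pgk1 had 0.23 (SE 0.13, limma adjusted p = 0.306) and passed when replicate 1 had its own term (adjusted p = 0.0287), within the limit on shared sequence given above.

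Ldhb, which encodes the lactate dehydrogenase subunit that favours pyruvate, was higher on fructose but just missed the threshold. Ldhb (mm10, chromosome 6, 142490249 to 142507957, minus strand) measured 138, 131, 142 and 139 FPKM in WT water, 131, 130, 137 and 143 FPKM in WT fructose, 162, 137, 142 and 147 FPKM in BgnKO water, and 156, 157, 157 and 161 FPKM in BgnKO fructose. All BgnKO fructose libraries lay above all WT fructose libraries. The means were 135 ± 6.18 and 158 ± 1.90 FPKM (SD, n = 4), and the log2 fold was 0.22 (SE 0.06, limma adjusted p = 0.0556). It passed once replicate 1 had its own term (adjusted p = 0.0141) and in replicates 2 to 4 (0.21, adjusted p = 0.0403). Ldha measured 94.5, 76.4, 88.9 and 83.2 FPKM in WT water, 89.8, 76.6, 86.2 and 80.9 FPKM in WT fructose, 89.6, 76.7, 84.5 and 79.2 FPKM in BgnKO water, and 97.9, 80.5, 86.5 and 75.7 FPKM in BgnKO fructose. Its log2 fold was 0.03 on fructose (SE 0.09, adjusted p = 0.90), and its groups overlapped. Of the Ldhb coding words 54.2% also occur in the pseudogene Gm5514, and of the Ldha coding words 57.5% occur in other genes.

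The polyol pathway genes were listed at low levels, and on each drink the genotypes overlapped. Sord measured 7.29, 6.50, 6.90 and 6.03 FPKM in WT water, 5.97, 6.73, 7.24 and 6.38 FPKM in WT fructose, 7.42, 7.28, 7.59 and 6.20 FPKM in BgnKO water, and 6.06, 7.22, 6.81 and 7.49 FPKM in BgnKO fructose, and its log2 fold on fructose was 0.06 (SE 0.08; limma, adjusted p = 0.725). Akr1b3 measured 1.04, 0.680, 0.831 and 1.11 FPKM in WT water, 1.10, 0.973, 0.881 and 0.907 FPKM in WT fructose, 0.850, 0.828, 0.692 and 0.620 FPKM in BgnKO water, and 0.914, 0.973, 0.780 and 1.02 FPKM in BgnKO fructose and was not tested. Of the coding words of Sord 80.0% occur in other genes, and of those of Akr1b3 93.6%.

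The pyruvate dehydrogenase complex and its kinases showed no called difference with genotype. On fructose the log2 folds of the 4 complex genes ran from -0.05 to 0.03. Pdha1, the E1 alpha subunit, was at the low end (-0.05, SE 0.08, limma adjusted p = 0.771), with means of 91.1 ± 4.11 FPKM in WT fructose and 88.2 ± 8.55 in BgnKO fructose (SD, n = 4). Pdha1 measured 103, 90.4, 92.5 and 89.2 FPKM in WT water, 96.6, 90.4, 86.6 and 90.7 FPKM in WT fructose, 106, 92.7, 93.9 and 84.6 FPKM in BgnKO water, and 99.5, 88.3, 86.1 and 78.9 FPKM in BgnKO fructose. Of the kinases, Pdk3 had the smallest unadjusted p on fructose (log2 fold -0.03, SE 0.07, adjusted p = 0.828). Pdk3 measured 15.1, 14.5, 14.0 and 14.8 FPKM in WT water, 14.6, 14.0, 13.4 and 14.2 FPKM in WT fructose, 16.7, 15.0, 14.0 and 13.1 FPKM in BgnKO water, and 15.1, 14.2, 13.0 and 12.7 FPKM in BgnKO fructose. Pdk4, the fasting-induced kinase, measured 6.36, 5.24, 5.65 and 4.22 FPKM in WT water, 5.12, 7.74, 4.18 and 7.55 FPKM in WT fructose, 4.50, 3.82, 3.94 and 5.28 FPKM in BgnKO water, and 7.58, 5.08, 4.79 and 6.40 FPKM in BgnKO fructose. Its log2 fold was -0.02 on fructose (SE 0.17, adjusted p = 0.96), and its libraries varied by up to 2.03 times.

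Among the 14 TCA cycle genes none passed on either drink, with 5 higher and 9 lower on fructose and a median log2 fold of -0.02. Idh2, the mitochondrial NADP-dependent isocitrate dehydrogenase, varied most of all members, by 2.59 times over the libraries. Idh2 (mm10, chromosome 7, 80094846 to 80115392, minus strand) measured 29.9, 41.1, 36.1 and 35.2 FPKM in WT water, 28.3, 37.5, 41.6 and 37.9 FPKM in WT fructose, 41.3, 40.9, 43.4 and 47.1 FPKM in BgnKO water, and 38.6, 46.1, 44.5 and 73.3 FPKM in BgnKO fructose. BgnKO fructose replicate 4 was far above the others. The log2 fold was 0.44 on fructose (SE 0.16, limma adjusted p = 0.135) and 0.36 averaged (SE 0.11, adjusted p = 0.0852). All 8 BgnKO libraries lay above the WT mean of their drink, but the genotypes overlapped on each drink. The Idh2 fold passed once replicate 1 had its own term (adjusted p = 0.0303 on fructose and 0.0149 averaged). Without WT fructose replicate 1 and BgnKO fructose replicate 4 the log2 fold on fructose was 0.14 (adjusted p = 0.55). The choroid plexus marker Ttr was highest in the same library, at 8924 FPKM, and lowest, at 212, in WT fructose replicate 1, where Idh2 was also lowest at 28.3. In BgnKO water replicate 4 Ttr was 770 and Idh2 47.1. The astrocyte markers summed to 2030 FPKM in BgnKO fructose replicate 4 and 1951 in BgnKO water replicate 4. That sum was 1340 in each of WT fructose replicates 1 and 2, where Idh2 was 28.3 and 37.5. The part of choroid plexus or astrocytes in Idh2 was not tested.

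Of the succinate dehydrogenase genes none passed on fructose, with log2 folds of 0.13 for Sdhb, 0.13 for Sdhc, 0.28 for Sdhd and -0.03 for Sdha. Sdhd passed once replicate 1 had its own term (limma adjusted p = 0.00902). Citrate synthase, Cs, had a log2 fold of -0.13 on fructose (adjusted p = 0.254) and Ogdh, of the 2-oxoglutarate dehydrogenase complex, of -0.15 (adjusted p = 0.209). Both passed in the average over drinks once replicate 1 had its own term (adjusted p = 0.0308 and 0.0227).

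Markers of other cells also shifted in level between the genotypes on fructose, though most of them did not pass the test. All 8 astrocyte markers were higher in BgnKO fructose, with a median log2 fold of 0.38, of which Aqp4, Gfap and Gja1 passed, and their sum was 1340 to 1439 FPKM in WT and 1484 to 2030 in BgnKO. The microglia markers were higher for 8 of 8 (median 0.37, sums 165 to 205 and 222 to 289), and none passed. Of the 8 neuronal markers 7 were lower (median -0.24, sums 2978 to 3650 and 2400 to 3169), and none passed. The neuronal markers include Eno2, itself a member, and the astrocyte markers include Aldoc, from the list of related genes given below. Of the 8 markers of hippocampal excitatory neurons 7 were lower (median -0.24, sums 344 to 421 and 238 to 371), and Wfs1 fell (log2 fold -0.74, SE 0.12, limma adjusted p = 0.00346). The 8 choroid plexus markers were all higher (median 1.14), but none passed. Their sums overlapped, at 231 to 4459 FPKM in WT fructose and 2640 to 9195 in BgnKO fructose. The sums of the meningeal and fibroblast markers were 26.7 to 161 and 71.3 to 353, and none of these markers passed. The part of these cells in the members' differences was not tested.

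Leaving out WT fructose replicate 1 and BgnKO fructose replicate 4, which held the lowest and the highest choroid plexus sums, gave 2 called members on fructose, as in the full set, while all genes called went from 475 to 137. The average over drinks then called Eno1, Gpd1 and Ogdh, and the Galk1 call ended (log2 fold 0.20, limma adjusted p = 0.0569). The share of all genes called in that average is not given here, so these calls are not read as a result about the members.

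No member passed the test for fructose in either genotype. In WT, 0 of 46 members passed (limma), beside a background of 0.00791%, and none had an unadjusted p under 0.05; 29 were higher and 17 lower, the median log2 fold was 0.02, within -0.16 to 0.20. In BgnKO, 0 of 46 passed, beside a background of 0%, and 2 (Galk1 and Pfkp) had an unadjusted p under 0.05; 24 were higher and 22 lower, from -0.20 to 0.36. Averaged over genotypes, 0 of 46 passed, beside 0.00791%, and 1 (Hk2) had an unadjusted p under 0.05. None was called in these comparisons under any alternative tried. Each of these comparisons shares libraries with the genotype comparisons.

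Txnip, the arrestin-like protein whose gene rises with glucose in many cells, is widely used as a readout of glucose supply. Txnip (mm10, chromosome 3, 96557957 to 96561883, plus strand) measured 10.5, 10.2, 9.76 and 13.0 FPKM in WT water, 8.68, 12.6, 9.08 and 10.6 FPKM in WT fructose, 10.1, 10, 8.49 and 10.9 FPKM in BgnKO water, and 9.99, 11.1, 8.58 and 16.7 FPKM in BgnKO fructose. The 4 groups overlapped, and BgnKO fructose replicate 4 was the highest library. The log2 fold of fructose against water was -0.09 in WT (SE 0.16, limma adjusted p = 1), and that of BgnKO against WT on fructose was 0.14 (SE 0.16, adjusted p = 0.651) and -0.04 without that library. The upstream window is shown because the gene is the usual readout of carbohydrate response: 250 bases before the start (RefSeq, GRCm38.p6, chr3:96557707-96557956, plus strand, 5′ to 3′), in lower case throughout, since these exact 6 letters are not in it. Carbohydrate response elements pair E-boxes that may be imperfect, and such forms were not searched for in any window.
Txnip: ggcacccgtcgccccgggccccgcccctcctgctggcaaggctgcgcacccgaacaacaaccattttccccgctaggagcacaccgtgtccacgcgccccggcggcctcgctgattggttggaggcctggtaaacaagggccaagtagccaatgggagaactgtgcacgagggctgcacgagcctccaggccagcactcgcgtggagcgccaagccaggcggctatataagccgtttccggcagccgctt

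In WT mice, the member with the smallest unadjusted p in each role group was as follows. Galk1 had a log2 fold of -0.16 (SE 0.08, unadjusted p = 0.0655 in limma) and Gpd1 of 0.14 (SE 0.08). Pfkl, at 0.14 (SE 0.08), was the only member whose WT fructose libraries did not overlap the WT water libraries, all being higher. This is 2.17% of the members, and 1.87% of all genes tested did not overlap. Gapdh had 0.20 (SE 0.12), Idh3b 0.08 (SE 0.06), Hk2 0.08 (SE 0.09), Pdk4 0.14 (SE 0.17), Pdhb 0.08 (SE 0.14) and Ldhb -0.03 (SE 0.06). Each had an adjusted p of 1. Idh3b, a subunit of the NAD-dependent isocitrate dehydrogenase, measured 137, 138, 144 and 139 FPKM in WT water, 143, 144, 152 and 151 FPKM in WT fructose, 140, 143, 148 and 143 FPKM in BgnKO water, and 143, 137, 142 and 127 FPKM in BgnKO fructose. Pdhb, the E1 beta subunit of pyruvate dehydrogenase, measured 38.7, 29.3, 28.5 and 28.3 FPKM in WT water, 38.0, 30.4, 31.2 and 31.8 FPKM in WT fructose, 42.8, 29.4, 30.5 and 29.0 FPKM in BgnKO water, and 39.2, 34.2, 33.3 and 28.0 FPKM in BgnKO fructose. In both the groups overlapped on water and fructose.

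Many members differed between replicate 1 and the other replicates. Of the 46 tested members, all 4 replicate 1 libraries lay above the other 12 for 10 and below them for 3, together 28.3%, compared with 21.1% of all genes tested. Pdk2 was lowest in replicate 1 (57.8 to 65.4 FPKM against 83.6 to 102), with a mean log2 difference of -0.52, followed by Hk1 (-0.36) and Idh3g (-0.21). Those above were the pyruvate dehydrogenase genes Pdha1, Pdhb, Dlat and Dld, the TCA cycle genes Idh3a, Sdha, Fh1 and Mdh1, and Ldha and Pgk1. Dld had the largest mean difference, 0.45, with 67.1 to 68.7 FPKM in replicate 1 and 46.5 to 54.0 in the others. All 4 genes of the pyruvate dehydrogenase complex were thus higher in the replicate 1 libraries of each group, by mean log2 differences of 0.19 to 0.45. The labels do not say how these libraries were made differently, and the cause was not tested.

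**Figure D4:**
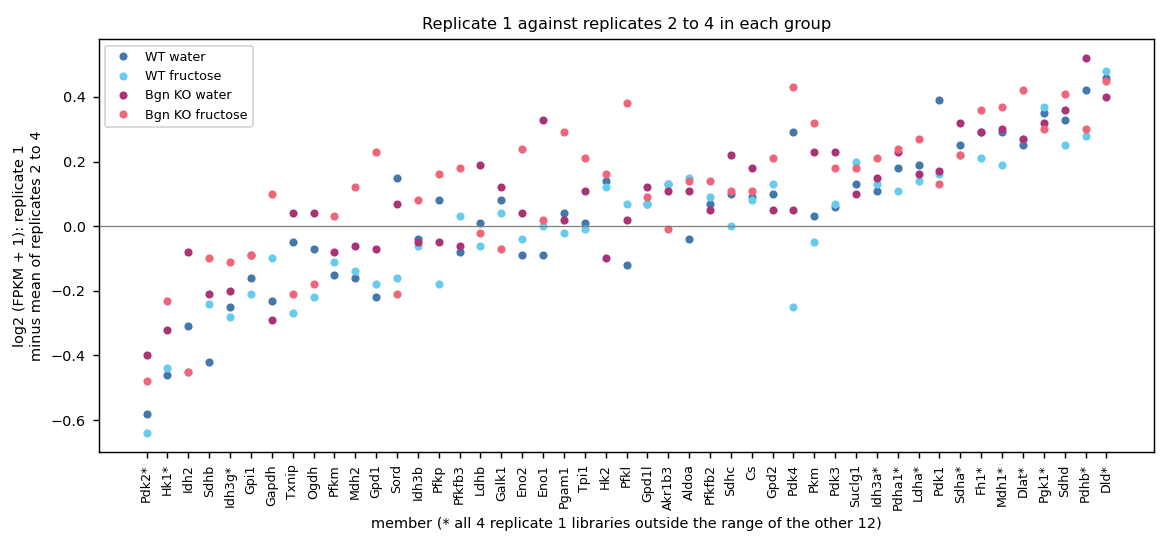
Difference on the log2(FPKM + 1) scale between replicate 1 and the mean of replicates 2 to 4 (y axis) for each of the 47 members (x axis, ordered by the mean), 1 point per group. Asterisks mark the 13 members whose replicate 1 libraries lie outside the range of the other 12, from Pdk2 at -0.52 to Dld at 0.45.

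Other genes of the same pathways were taken from a list of 82 names, of which 71 entries were tested and 4 (Tigar, Tkfc, Sdhaf3 and Sdhaf4) did not match by name. The 71 include the joint entry of Hk1 and Hkdc1, which is also counted among the members. On water 1 of 71 passed, or 1.41%, beside 0.387% of all genes: Galt, of galactose use, listed jointly with Il11ra1, fell. It measured 12.8 ± 0.925 FPKM in WT water and 9.06 ± 0.512 in BgnKO water (SD, n = 4; log2 fold -0.45, SE 0.09, adjusted p = 0.0471 in limma). On fructose 2 rose and none fell, or 2.82%, beside 3.76% of all genes. These were Ldhd, the D-lactate dehydrogenase (0.31, SE 0.08, adjusted p = 0.0442), and Suclg2, the GTP-forming succinate-CoA ligase subunit (0.38, SE 0.10, adjusted p = 0.0425). Averaged over drinks, 4 rose and 1 fell, or 7.04%, beside 4.99% of all genes. Those that rose were Bpgm, which makes 2,3-bisphosphoglycerate (0.22, adjusted p = 0.0124), the monocarboxylate transporter Slc16a1 (0.33, adjusted p = 0.031), the mitochondrial malic enzyme Me3 (0.30, adjusted p = 0.00465) and Sdhaf1, an assembly factor of succinate dehydrogenase (0.21, adjusted p = 0.0126). Galt fell (-0.35, adjusted p = 0.00528). Once replicate 1 had its own term, 3 passed on water, 12 on fructose (10 higher and 2 lower, Bpgm, Slc16a1, Me3 and Sdhaf1 among the higher) and 12 averaged, the last including the joint entry of Hk1 and Hkdc1. These are 4.23, 16.9 and 16.9%, beside 0.996, 17.3 and 18.0% of all genes. In replicates 2 to 4 there were 1, 7 and 12, or 1.41, 9.86 and 16.9%, beside 0.625, 10.9 and 12.6% of all genes. Galt did not pass on water there (limma adjusted p = 0.0635). The median log2 fold over the 71 was 0.02 on water and 0.03 on fructose, beside 0.00 and -0.01 over all genes. No listed gene passed for fructose against water in either genotype. Khk, ketohexokinase, which starts fructose breakdown, was 3.20 ± 0.503 FPKM in WT water and 3.13 ± 0.127 in WT fructose (SD, n = 4), and its log2 fold there was -0.02 (SE 0.12, adjusted p = 1). It is listed jointly with Emilin1. In BgnKO fructose it was 3.86 ± 0.759, and its libraries overlapped those of WT fructose.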

How the data were processed

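Poly-A RNA of mouse hippocampus was read on an Illumina HiSeq, with CASAVA 1.8.2 for base calls and demultiplexing, per the labels' protocols. The submitters' processing notes name TopHat, TopHat2, Bowtie, Bowtie2, Cufflinks, Cuffdiff and mm10. Versions, strand setting and the treatment of reads with several matches are not given in the sources used here. The values are the FPKM that the authors deposited for 27670 loci and 16 libraries. Its group columns, which match the replicate means within 0.1% at 99.7% of loci or more, were not used.

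FPKM of loci with 1 name were summed. limma 3.58.1 in R 4.3.3 (trend, 4 group means) was fitted to log2(FPKM + 1). A mean of 1 FPKM or more was required, which left 12648 genes, and p-values were Benjamini-Hochberg adjusted within each of 7 comparisons, with a threshold of 0.05. A fold is on that scale, which understates changes of low genes. The fit was tested on simulated data. Library values are given for members called in any comparison, for the member of smallest p in each role group on 2 comparisons, and for 10 fixed members; they stand in the order of replicates 1 to 4. The members and lists were chosen with earlier results of these data known. Positions are 1-based, from GENCODE vM21 (GRCm38, the assembly of mm10).

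Deviations of same-numbered libraries from their group means correlated at 0.12 to 0.70 for fructose against water in WT and 0.20 to 0.61 in BgnKO. For BgnKO against WT they ran from -0.04 to 0.69 on water and 0.09 to 0.75 on fructose. Replicate 1 gave the highest value in each comparison. In replicates 2 to 4 alone the correlations ran from -0.27 to 0.31. The numbers thus show no clear pairing beyond replicate 1, and the main fit used none. Library pairs differed by a root mean square log2 value of 0.179 to 0.560, so none is a copy.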

Additional observations from a re-analysis of the deposited data

Results flagged for a closer look

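Of the members given by library, 4 values stood far from the other 3 of their group, with a gap to the nearest of 0.857 to 0.906 of the group's range, above Dixon's critical value. Chance alone flags about 1 in 20 groups, and 76 groups (19 members in 4 groups) were examined. Eno1 in BgnKO fructose replicate 2 was 48.8 FPKM, compared with 51.7 to 52.1 in the other 3. Hk2 in WT fructose replicate 1 was 1.50, compared with 1.28 to 1.31. Pdhb in WT water replicate 1 was 38.7, compared with 28.3 to 29.3, and in BgnKO water replicate 1 it was 42.8, compared with 29.0 to 30.5. Both Pdhb values belong to replicate 1, which was also highest for Pdhb in the fructose groups (38.0 and 39.2). No member had an effect of fructose that differed between genotypes after adjustment (lowest adjusted p = 0.999 in limma, 1 member with an unadjusted p under 0.05).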

How the results depend on the processing

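The count of members called was most sensitive to replicate 1. The replicate block (the replicate number as a term) called 2 members on water, 8 on fructose and 12 averaged over drinks. The term for replicate 1 called 2, 7 and 11, beside 0.996, 17.3 and 18.0% of all genes. Replicates 2 to 4 alone called 2, 5 and 6, beside 0.625, 10.9 and 12.6%. In the main fit the shares of all genes were 0.387, 3.76 and 4.99%, so calls rose over all genes too. The block called no member in the fructose comparisons, and it ended no call of the fit without it. With Eno1 and Gm5506 summed, an alternative chosen after seeing the data, the term for replicate 1 called 1, 6 and 10. Leaving out 1 library called 0 to 1 members on water (1 when replicate 1 of any group but WT fructose was left out), 2 to 4 on fructose and 2 to 5 averaged; without BgnKO water replicate 1 there were 4 on fructose, and without BgnKO fructose replicate 1 there were 5 averaged. For the block, the summed pair and the left-out libraries the share of all genes is not given here. Those counts are therefore not read as results about the members. Over both drinks Bgn in BgnKO was 40.6% of WT, and 37.1 to 43.8% without 1 library, with the same call.

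Gpd1 and Galk1 on fructose were called under each of the 10 planned settings, with log2 folds of -0.53 to -0.40 and 0.37 to 0.50, and without any 1 library. The averaged Galk1 call was lost without any 1 of 7 libraries (adjusted p 0.0518 to 0.0675). Eno1 on fructose turned to 0.02 when summed with Gm5506, with and without the term for replicate 1. Uncalled folds near 0 turned sign. Without the pair WT fructose replicate 1 and BgnKO fructose replicate 4, the fold on fructose was 0.03 for Pdha1, 0.02 for Pdk3, -0.10 for Txnip and -0.02 for Sord, and the Sord fold of fructose in WT was 0.02. In replicates 2 to 4, Ldha on fructose was -0.01 and Sord for fructose in WT 0.06. Leaving out 1 library, the folds of BgnKO against WT on fructose ran from -0.04 to 0.26 for Txnip, -0.16 to 0.09 for Pdk4, -0.04 to 0.08 for Ldha, -0.11 to 0.00 for Pdha1, -0.08 to 0.00 for Pdk3 and -0.34 to -0.25 for Eno1. Those of fructose in WT ran from -0.05 to 0.18 for Hk1, 0.00 to 0.14 for Hk2, -0.09 to 0.01 for Ldha and -0.06 to 0.02 for Sord. The cause was not tested. Of 934 folds under planned settings, 873 kept direction and side of the threshold. Read depth per gene is unknown, so no counting interval is given.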
